A study of Homo sapiens with 6 samples.

Results

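Toll-like receptors recognise parts of microbes and molecules released by damaged cells. TLR4 at the cell surface binds bacterial lipopolysaccharide together with LY96 (MD-2), its bound partner, and CD14, which hands the lipid over. The TIR adaptors TIRAP and MYD88 carry the signal from the plasma membrane to kinases that activate NF-kappaB, and TICAM1 (TRIF) carries the signal of TLR3 and of internalised TLR4 to interferon genes. TLR2 pairs with TLR1 or TLR6 to bind lipoproteins, and TLR3 binds double-stranded RNA in endosomes. These receptors are best known from myeloid cells, and carcinoma cells can carry some of them.

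This account covers 10 genes of 19775 measured: the receptors TLR1, TLR2, TLR3, TLR4 and TLR6, the co-receptors LY96 and CD14, and the adaptors MYD88, TIRAP and TICAM1. They were read on 19 probe sets of Affymetrix U133 Plus 2.0 arrays, all those given to a single member and to no other gene; 6 genes had 1 probe set and 4 had several. The group was chosen by the large difference of TLR4 between the groups, with the values of these arrays known, so the members' values are a description and carry no test. MDA-MB-231 cells, an invasive breast cancer line, were infected with pLKO.1 lentiviral vectors that carried a short hairpin against ATAD3A, a mitochondrial inner membrane ATPase, or against GFP as the control. Both populations were selected in puromycin at 1.0 µg/ml for 2 weeks and were used at passage 2. RNA from the shGFP control went to 3 arrays and RNA from the shATAD3A knockdown to 3 more. The labels do not name more than one hairpin against ATAD3A, and they do not say whether the arrays of a group came from separate cultures, so a p-value here covers the spread among arrays, possibly a technical one, and with 3 arrays a group precision is limited.

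Values are deposited log2 expression values, and differences are knockdown minus control. Over all genes the values had a peak of dim genes, called the low mode here, and a long bright tail. The dip between them lay at 4.77, a boundary set after seeing the data, and a value in the low mode holds little signal. The members' group means nearest to it were 4.37 and 5.09. Single arrays came closer, such as a TLR3 knockdown array at 4.67, and knockdown arrays of a TIRAP probe set (239796_x_at) lay on both sides. ATAD3A was lower in all knockdown arrays, at 7.41 or less against 7.73 or more in control (change -0.49, limma adjusted p = 0.0129), on 1 probe set of the x_at type, whose probes can match more than one transcript. All 6 markers of this line were above the low mode, VIM, CD44 and EGFR at control means of 15.1, 14.8 and 12.3; 4 of the 6 fell, CD44, MSN, AXL and CAV1, by 0.25 to 0.45 on the log2 scale. ESR1 and PGR lay in the low mode in both groups, while ERBB2 was at 7.80 in control and rose by 0.51 (limma adjusted p = 0.0025).

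TLR4 was high in control and in the low mode in knockdown. On its brightest probe set (224341_x_at) the control arrays read 9.26, 9.42 and 9.32, and the knockdown arrays read 3.92, 3.46 and 4.18. The groups were far apart, with 5.09 between the lowest control array and the highest knockdown array. The means were 9.34 ± 0.080 and 3.86 ± 0.36 (SD, n = 3), a difference of -5.48, or 44.7-fold, imprecise because the knockdown value lies in the low mode. Of the 19775 genes, 4 had a larger decrease. In RNA from whole cultures, fewer cells with a transcript and less of it per cell cannot be told apart.

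The other TLR4 probe sets were lower in every knockdown array too. The second (232068_s_at) read 8.28, 8.63 and 8.22 in control and 3.50, 3.16 and 3.31 in knockdown, a difference of -5.05. The third (221060_s_at) read 6.16, 5.77 and 6.30 in control and 2.83, 2.86 and 2.82 in knockdown, a difference of -3.24. All 3 went from above the low mode into it. The fourth (1552798_a_at) lay in the low mode in both groups, at 2.70, 2.09 and 2.71 in control and 1.85, 1.85 and 1.87 in knockdown. The 3 brighter probe sets are of the s_at and x_at types, so that without these types the TLR4 difference was -0.64, from the dim probe set alone.

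TLR2, the lipoprotein receptor, was lower in knockdown but stayed above the low mode. Its probe set read 6.89, 7.06 and 6.85 in control and 5.07, 5.04 and 5.17 in knockdown. The groups did not overlap, and the means of 6.93 ± 0.11 and 5.09 ± 0.066 (SD, n = 3) differed by -1.84, or 3.58-fold. Its pairing partners TLR1 and TLR6 stayed in the low mode throughout. TLR1 lay between 2.44 and 2.54 over all 6 arrays, with a difference of 0.0027. The brighter TLR6 probe set lay between 3.86 and 3.95 and the other between 2.81 and 2.89, with differences of 0.0098 and -0.022. For both of these genes the control and knockdown arrays overlapped.

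TLR3, the endosomal receptor of double-stranded RNA, was moderate in control and lower in knockdown on its brightest probe set (239587_at). The control arrays read 5.14, 5.47 and 5.19 and the knockdown arrays 4.67, 3.71 and 4.50. Knockdown replicate 2 was the lowest, and without it the difference went from -0.97 to -0.68. The second probe set (206271_at) was in the low mode in both groups, at 3.66 ± 0.15 and 3.35 ± 0.034 (SD, n = 3), also with no overlap. The third (242667_at) was in the low mode, with a difference of 0.019 and overlapping groups.

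**Figure D1:**
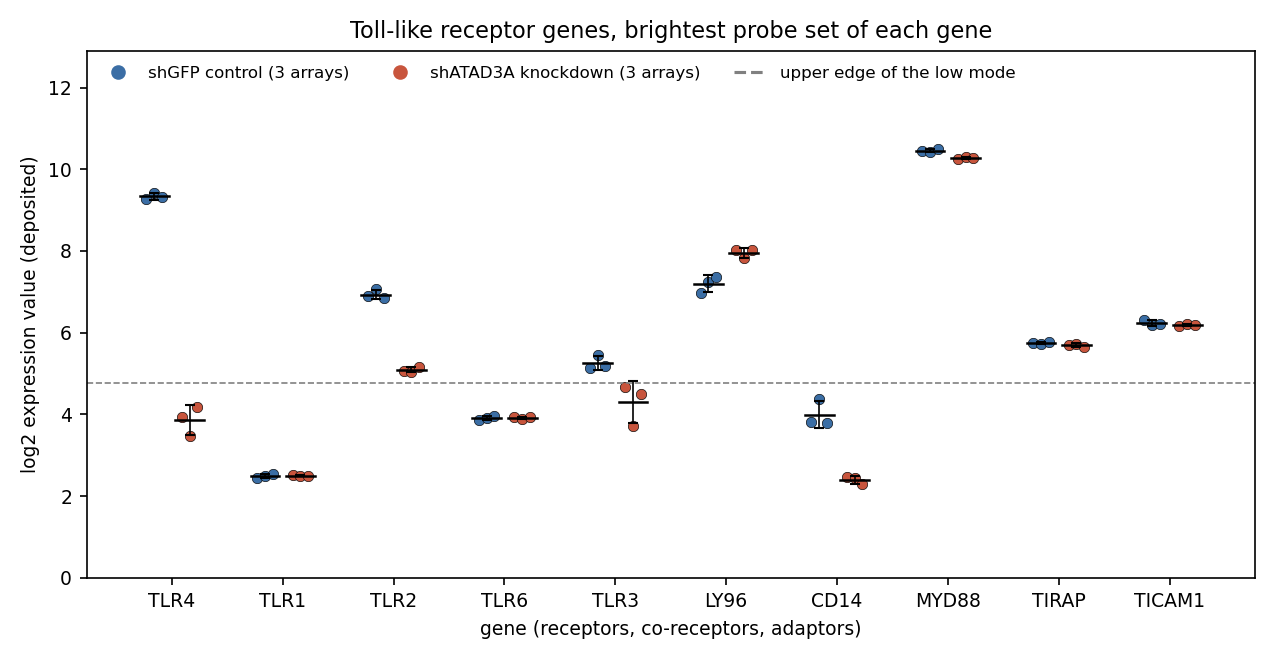
Deposited log2 values of the brightest probe set of each of the 10 genes, with points for the 3 control and 3 knockdown arrays, bars for the mean and SD, and a dashed line at 4.77, the edge of the low mode. TLR4 goes from 9.34 to 3.86 and TLR2 from 6.93 to 5.09, LY96 is higher in knockdown, and heights of different genes are not comparable because each probe set has its own response.

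The co-receptors of TLR4 differed in direction. LY96, which TLR4 needs to bind lipopolysaccharide, read 6.96, 7.25 and 7.37 in control and 8.02, 7.82 and 8.03 in knockdown. All knockdown arrays were above all control arrays, with a difference of 0.76, or 1.70-fold. CD14 read 3.82, 4.38 and 3.79 in control and 2.47, 2.43 and 2.29 in knockdown. Its groups did not overlap either, with a difference of -1.60, but both means, 3.995 ± 0.33 and 2.40 ± 0.097 (SD, n = 3), lie in the low mode.

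The adaptors differed little. MYD88, shared by most Toll-like and interleukin-1 receptors, read 10.45, 10.42 and 10.51 in control and 10.25, 10.29 and 10.27 in knockdown. The groups did not overlap, although the difference was -0.18, or 1.14-fold. TICAM1 read 6.31, 6.19 and 6.21 in control and 6.16, 6.21 and 6.19 in knockdown, overlapping, with a difference of -0.047. TIRAP, which brings MYD88 to the membrane, read 5.74, 5.71 and 5.77 in control and 5.71, 5.73 and 5.65 in knockdown on its brightest probe set (1552360_a_at), also overlapping. Its other 3 probe sets were in the low mode and overlapped. One of them (239796_x_at) had a knockdown array at 5.05 beside 4.06 and 3.99, so its difference of 0.37 includes 1 array, knockdown replicate 1, that stood above the rest.

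**Figure D2:**
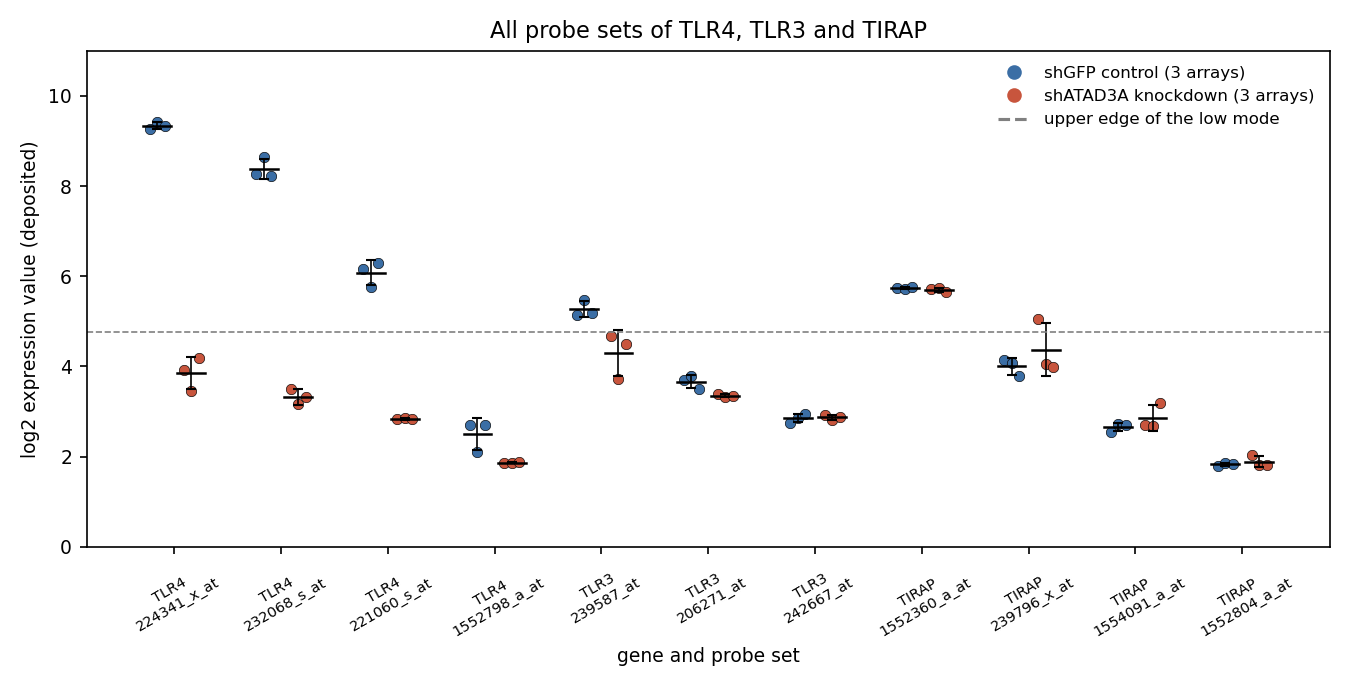
Deposited log2 values of every probe set of TLR4, TLR3 and TIRAP, with points for the 3 arrays of each group, bars for the mean and SD, and a dashed line at 4.77. All 4 TLR4 probe sets are lower in every knockdown array, and only the brightest TIRAP probe set lies above the line in both groups.

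Of the 19 probe sets, 9 were lower and 1 was higher in knockdown at a limma adjusted p of 0.05, and 9 were not called. Over all 54613 probe sets, 10.5% were called lower and 12.0% higher. The same 9 and 1 had groups that did not overlap, beside 15.8% of all probe sets lower in every knockdown array and 17.4% higher in every one. Since the group was chosen on this contrast, nothing is read from these counts. When any 1 array was left out, 6 or 7 were called lower; those lost were the dim TLR4 probe set and the 2 brighter TLR3 probe sets. The median difference was -0.047 over the 19 probe sets and -0.0053 over all probe sets. By gene, 7 of the 10 had a probe set above the low mode in control and 5 in knockdown. The 2 that went into the low mode in knockdown were TLR4 and TLR3.

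**Figure D3:**
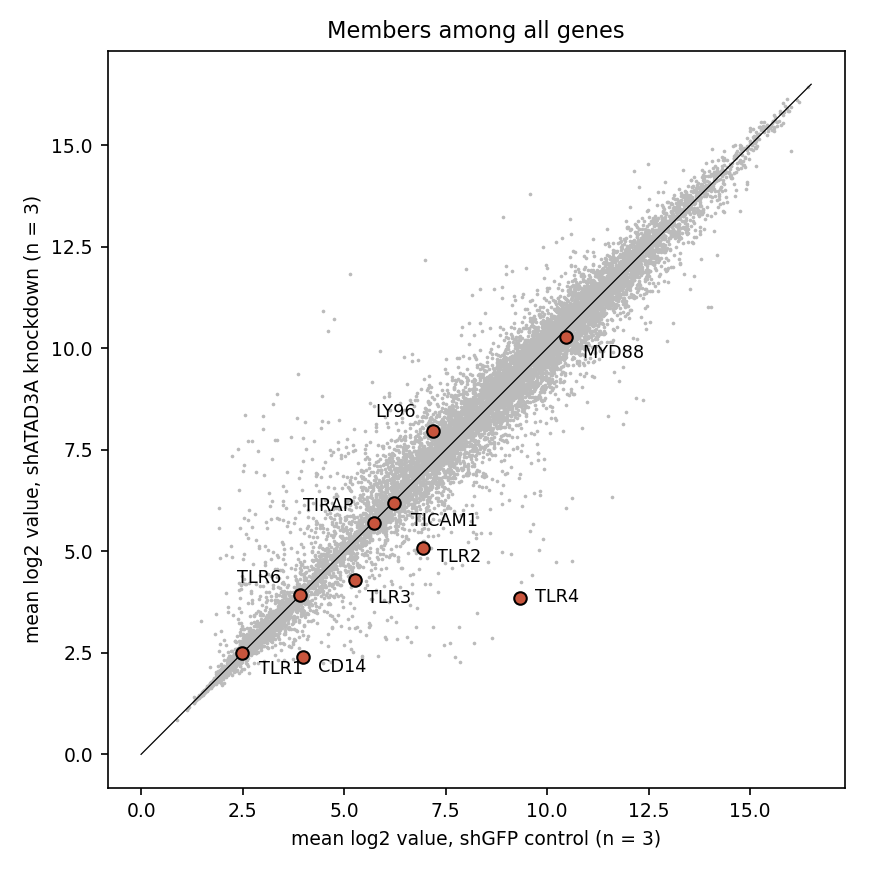
Mean log2 value in knockdown (vertical, n = 3) against control (horizontal, n = 3) for 19775 genes in grey, each on its brightest probe set, with the 10 members in red and a line of equality. TLR4, at 9.34 and 3.86, lies far below the line, LY96 above it, and TLR1, TLR6, TIRAP and TICAM1 on it.

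The sequence just before the annotated start is shown for the 4 receptor and co-receptor genes that were lower on a probe set in every knockdown array, so that they can be compared. Each is the 250 bases upstream of the RefSeq gene start in GRCh38.p14, 5′ to 3′ on the gene's strand. TLR4 is at chr9:117704153-117704402 (plus strand), TLR2 at chr4:153684030-153684279 (plus), TLR3 at chr4:186068906-186069155 (plus) and CD14 at chr5:140633176-140633425 (minus). Capitals mark matches, on either strand, to the 7 motifs named after them.
TLR4: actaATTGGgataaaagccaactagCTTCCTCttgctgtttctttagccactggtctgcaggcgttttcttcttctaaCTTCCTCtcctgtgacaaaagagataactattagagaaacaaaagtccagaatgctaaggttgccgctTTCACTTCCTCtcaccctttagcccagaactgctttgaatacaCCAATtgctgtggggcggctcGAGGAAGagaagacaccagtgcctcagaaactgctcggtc
TLR2: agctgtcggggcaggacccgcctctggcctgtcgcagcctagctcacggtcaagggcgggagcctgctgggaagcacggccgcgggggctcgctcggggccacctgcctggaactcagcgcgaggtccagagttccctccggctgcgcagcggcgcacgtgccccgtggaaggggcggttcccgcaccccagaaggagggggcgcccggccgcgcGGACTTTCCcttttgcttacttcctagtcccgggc
TLR3: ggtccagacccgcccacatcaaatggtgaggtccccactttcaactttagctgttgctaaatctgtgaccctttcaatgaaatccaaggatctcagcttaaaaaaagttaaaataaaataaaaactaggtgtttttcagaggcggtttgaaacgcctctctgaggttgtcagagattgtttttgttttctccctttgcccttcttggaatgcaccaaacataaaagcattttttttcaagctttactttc
CD14: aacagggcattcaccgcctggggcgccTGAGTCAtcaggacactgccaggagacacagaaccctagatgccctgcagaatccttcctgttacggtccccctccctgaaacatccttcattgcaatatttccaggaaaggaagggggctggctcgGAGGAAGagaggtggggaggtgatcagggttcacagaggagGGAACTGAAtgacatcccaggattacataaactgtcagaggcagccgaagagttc

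The motifs were chosen after the sequences were seen, and a match is a description of letters, not a site. The core of the myeloid factor PU.1, GAGGAAG, occurs 4 times before TLR4 and once before each of CD14, TLR6 and MYD88, and 11.2% of 35116 promoters of the same length hold it. A composite of ETS and interferon regulatory factor letters, GGAANTGAA, occurs once before each of TLR4 and CD14 and in 1.55% of promoters; before TLR4 it overlaps one of the PU.1 cores. SPI1, the gene of PU.1, lay in the low mode in both groups, at 2.08 and 2.06. The kappaB-like GGACTTTCC occurs once before TLR2, as it does before TICAM1, and in 0.33% of promoters. The AP-1 motif TGANTCA (6.57% of promoters) occurs before CD14, CCAAT (32.0%) occurs 2 times before each of TLR4 and TLR6, and the interferon motif GAAANNGAA (6.88%) and TATAAA (10.7%) occur before none of the 4. GAAANNGAA occurs before MYD88. No motif matched before TLR3, which says only that these letters are not in this window. The TLR2 window has 72.4% G and C with 26 CpG pairs, against 46.4% and 5 for TLR4, 39.2% and 3 for TLR3 and 54.8% and 5 for CD14, where the median promoter has 58.0% and 11.

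Genes beside the members on the chromosome were read in the same arrays. The median change of the 50 nearest measured genes was 0.0046 around TLR4, -0.027 around TLR2, -0.0015 around CD14, 0.024 around LY96, and between -0.024 and 0.018 around TLR1, TLR6, MYD88 and TIRAP. Around TICAM1 it was 0.17, and the adjacent FEM1A had a change of 1.04. The nearest measured neighbours of TLR4 had changes of -0.030 (LOC101928797) and -0.025 (BRINP1). Around TLR3 the median of 40 neighbours was -0.12, and the adjacent SORBS2 and FAM149A had changes of -0.80 and -0.35. TLR1 lies between TLR10 and TLR6, and all 3 were in the low mode in both groups. TMEM70 beside LY96 had a change of 0.64.

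The genes whose values were closest to those of TLR4 over the 6 arrays, by root mean square difference on the log2 scale with the brightest probe set of each gene, were HMGN5, FAT3, CST2, CYB5R2, SERPINA1 and TMEM163. This measure includes the level of each probe set, which is not comparable between genes. Each gene was then centred on its own mean, a measure added after seeing the data. It takes out the level but keeps the size of the change. The closest by it were CHRDL1, CST1, TMEM163, NAP1L3, TNFSF15 and FAT3, so 2 of the 6 were shared. The centred difference was 0.23 for CHRDL1, an antagonist of bone morphogenetic proteins, whose change was -5.84, and 0.30 for the atypical cadherin FAT3, whose change was -5.19. With the mean of all probe sets of a gene, or without s_at and x_at types, 0 of the first 6 stayed among the nearest.

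The other genes of the pathway went both ways. Their lists were written with earlier results of these data known, so the counts are a description. Of 93 listed, 84 were measured. At a limma adjusted p of 0.05, 18 rose and 20 fell, which is 21.4% and 23.8%. Of all 19775 genes, 19.7% rose and 13.9% fell. These shares are not matched for expression level. Of the 84, 26 lay in the low mode in both groups, while 48.4% of all genes lay below the boundary of that mode. The part of level in the larger share of falls was not tested. The median change of the 84 was -0.014, beside -0.0008 for all genes. Without s_at and x_at probe sets 12 fell, in a setting that also drops genes with no probe set of another type.

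None of the 5 other Toll-like receptors TLR5, TLR7, TLR8, TLR9 and TLR10 was called, and all 5 were in the low mode in both groups; the one with the smallest p, TLR10, changed by -0.040 (limma adjusted p = 0.466). Of 10 genes for ligand binding, receptor folding and trafficking, 1 rose and 1 fell. The scavenger receptor SCARB1 rose by 1.15 ± 0.10 (SE; limma adjusted p = 0.000298). CNPY3, a chaperone that folds Toll-like receptors, fell by 0.48 ± 0.080 (SE; limma adjusted p = 0.0043), and its other 3 probe sets were lower too, by 0.52 to 1.03 on the log2 scale. Of 8 endogenous ligands, 2 rose and 2 fell. The matrix protein TNC changed by -1.62 ± 0.052 (SE; limma adjusted p = 6.98e-06) and fibronectin (FN1) by -0.35 ± 0.068 (SE; adjusted p = 0.0088). Its called probe sets are all of the s_at and x_at types, and the 2 of other types lay in the low mode, which holds little signal. The chaperonin HSPD1 rose by 0.43 and HMGB1, a nuclear protein released by dying cells, by 0.15 (adjusted p = 0.0378). The HMGB1 call was lost when any 1 array was left out, with changes of 0.11 to 0.17 and adjusted p between 0.0508 and 0.123. Its other 4 probe sets were called higher, by 0.22 to 0.36, and with all probe sets averaged the change was 0.26, also called.

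Of 6 interleukin-1 family receptors that share MYD88, IL1R1 rose by 0.77 ± 0.091 (SE; limma adjusted p = 0.001) and its partner IL1RAP changed by -0.56 ± 0.079 (SE; adjusted p = 0.0021). Another IL1RAP probe set was higher in knockdown by 0.62, so its direction depends on the probe set. Of 15 kinases and ubiquitin ligases that act after MYD88, 1 rose and 4 fell. The adaptors of the kinase TAK1, TAB2 and TAB3, changed by -1.01 ± 0.041 and -0.98 ± 0.053 (SE; limma adjusted p = 1.55e-05 and 4.76e-05), and the ubiquitin ligase PELI1 by -0.90 ± 0.081 (SE; adjusted p = 0.000337). Both called TAB2 probe sets are of the s_at type, and the other lay in the low mode. IRAK1, the fourth that fell and named after its value was seen, changed by -0.30 (adjusted p = 0.0028). UBE2N rose by 0.13 (adjusted p = 0.045), a call lost without any 1 array other than control replicate 1 (adjusted p up to 0.153). Of 8 genes of the TICAM1 arm, 3 rose and none passed the test as lower: the kinase TBK1 by 0.48 ± 0.078 (SE; limma adjusted p = 0.0042), TRADD by 0.30 and TRAF3 by 0.22 (adjusted p = 0.0126 and 0.0303). The TRAF3 call was lost without control replicate 2 or 3 and without knockdown replicate 2 or 3 (adjusted p up to 0.0973). TANK and IKBKE, named after their values were seen, were lower in every knockdown array, by 0.39 and 0.31 on the log2 scale (limma adjusted p = 0.0639 and 0.0579), and 2 genes of the arm were called lower with an intensity trend or without dim genes. At a threshold of 0.01 only 1 of the 8 rose.

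Of 12 negative regulators, 4 rose and 3 fell. USP18, an interferon-induced protease, rose by 2.62 ± 0.23 (SE; limma adjusted p = 0.000276) from the low mode. Its knockdown mean of 4.87 lay near the edge of that mode, with arrays at 5.39, 4.72 and 4.48. The inhibitory kinase IRAK3 rose by 0.54 and TOLLIP by 0.40. The other 2 s_at probe sets of TOLLIP were higher in every knockdown array without passing the test, and the only one of another type lay in the low mode. The deubiquitinase CYLD changed by -1.05 ± 0.054 (SE; limma adjusted p = 3.75e-05), TNIP1 by -0.50 and the ubiquitin ligase RNF216 by -0.36. A dim TNIP1 probe set was 0.59 higher in knockdown, which did not pass the test.

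Of 20 inflammatory target genes of TLR4 signalling, 6 rose and 9 fell. A link of these changes to the TLR4 difference was not tested. The chemokine CXCL8 went from 14.2 ± 0.028 to 12.3 ± 0.10 (SD, n = 3), a change of -1.88 (limma adjusted p = 5.88e-06). CSF3 and CXCL10 changed by -3.19 and -2.23, both into the low mode. CCL20 rose by 2.89 ± 0.082 (SE; limma adjusted p = 4.85e-06), NFKBIZ by 1.45 and CCL5 by 1.62, though both group means of CCL5 lay in the low mode. IL6, named after its values were seen, was 11.45 ± 0.082 in control and 11.44 ± 0.053 in knockdown (SD, n = 3; limma adjusted p = 0.961). Without s_at and x_at probe sets 5 of these targets fell. That setting drops genes with no probe set of another type, CXCL8 among them, so the smaller count is not only of lost calls.

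**Figure D4:**
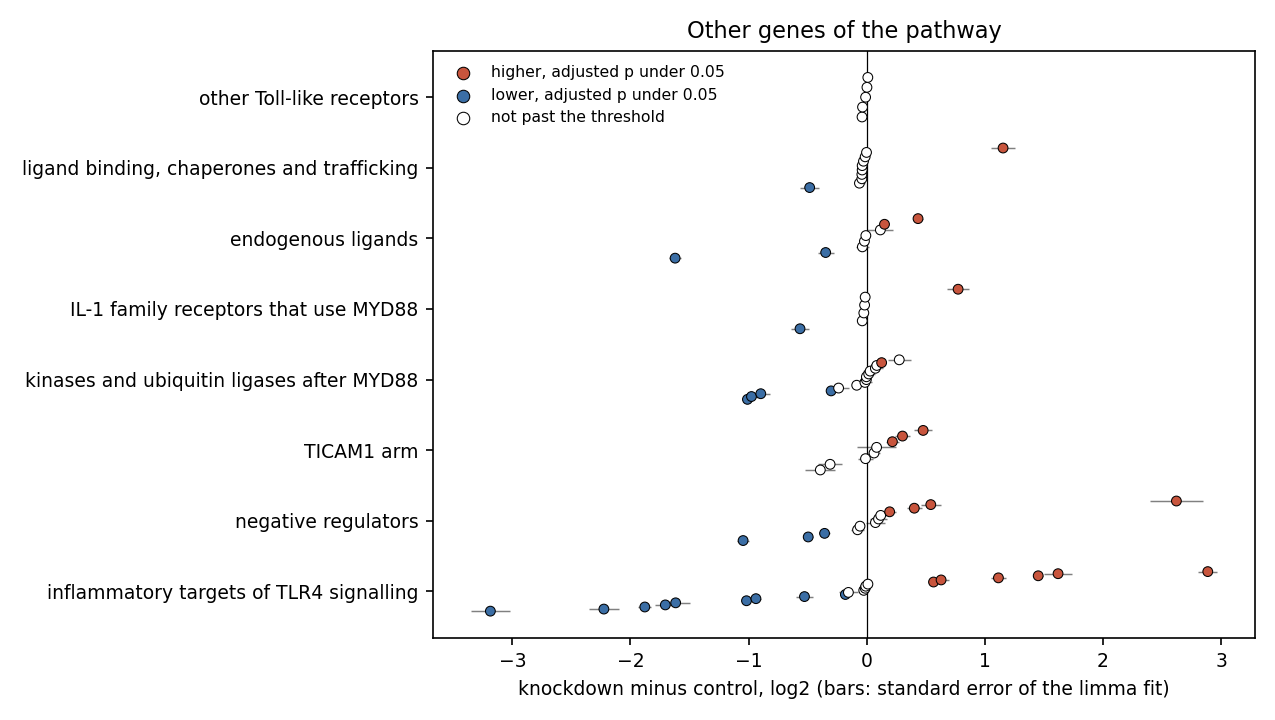
Change of each measured pathway gene (horizontal, log2, knockdown minus control) by list, with bars for the SE of the limma fit; red genes rose and blue genes fell at an adjusted p of 0.05, and white genes were not called. The inflammatory targets spread from -3.19 for CSF3 to 2.89 for CCL20, while the 5 other Toll-like receptors lie close to 0.

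Markers of other cells that carry these receptors were checked. Of 12 myeloid markers 11 were in the low mode in both groups, PTPRC, SPI1, TYROBP and CSF1R among them. The exception, LAPTM5, was at 10.1 in control and fell by 0.94 (limma adjusted p = 0.000385), so that the summed linear level of the list was 1135 to 1263 in control and 596 to 709 in knockdown. LYZ also fell, by 0.18 within the low mode (limma adjusted p = 0.0087). All 8 B and T lymphocyte markers measured were in the low mode, with summed linear levels of 64.2 to 65.5 in control and 71.0 to 72.2 in knockdown; of these CD3D rose by 0.73 (limma adjusted p = 0.000128). Of 7 endothelial markers PECAM1 alone was above it, changed by -1.27, KDR changed by -0.44 within it (limma adjusted p = 0.0384), and the sum was 119 to 158 in control and 67.7 to 88.0 in knockdown. The part of LAPTM5 and PECAM1 in the TLR4 difference was not tested.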

How the data were processed

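Total RNA (250 ng) of the 6 samples was labelled and hybridised to U133 Plus 2.0 arrays, per the labels' protocols. The deposited values are log2 expression values, a scale read from their range (0.826 to 16.6) and shape; how probes were summarised is not given in the sources used here. The submitters' processing notes list Partek with no version. The 6 arrays had medians of 3.16 to 3.23, and no values were rescaled.

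Of 54675 probe sets, 62 controls were set aside; 41091 had 1 symbol in the platform annotation of 2016, 1801 several and 11721 none. Names and gene order came from the RefSeq table of GRCh38.p14, matched by Entrez ID. Genes were read on the probe set with the highest mean. limma 3.58.1 in R 4.3.3 (lmFit and eBayes, two-sided) was fitted over all probe sets and over all genes, adjusted by Benjamini-Hochberg and called at 0.05, and tested on simulated data. Promoters came from RefSeq, with 7 of the 10 members used. The members and gene lists were chosen with earlier results of these data known. Named pathway genes were up to 3 in each direction per list among called genes whose groups did not overlap, or the smallest p where none was called. Of the 93 listed pathway genes, 9 were not analysed here. Alternatives were quantile or median scaling, leaving out dim or cross-matching probe sets, averaging probe sets, an intensity trend, array weights, a threshold of 0.01, a replicate block and each array left out.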

Additional observations from a re-analysis of the deposited data

How the results depend on the processing

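The TLR4 difference of -5.48 lay between -5.64 and -5.29 when any 1 array was left out, and moved to -3.60 with all its probe sets averaged and to -0.64 without the s_at and x_at types, which leaves only a dim probe set. With probe sets averaged, TLR3 moved from -0.97 to -0.42 and TIRAP from -0.045 to 0.15; TICAM1 moved from -0.047 to -0.21 with the median of its neighbours removed. The pathway genes that fell went from 20 to 12 without these types, in part because genes with no other probe set drop out. Counts of all genes, all probe sets and pathway genes otherwise stayed within 1.5 times of the main count under every setting run. With all probe sets averaged, IL1RAP read 0.027 (adjusted p = 0.937) and TNIP1 0.047 (adjusted p = 0.887); without s_at and x_at types TNIP1 read 0.59 (adjusted p = 0.0906) and TOLLIP -0.016 (adjusted p = 0.867), each with the direction turned. The cause was not tested beyond the change of probe set. Members called lower numbered 6 of 19 probe sets after quantile normalization and 7 with arrays centred on their medians, against 9.

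Deviations from the group mean were compared between arrays over probe sets with a mean above 4.77. They correlated at -0.25, -0.16 and 0.049 for same-numbered arrays and between -0.11 and 0.24 for the others. With 3 arrays a group these deviations depend on each other. They cannot show whether the numbers pair the arrays. With the replicate number as a block, 6057 genes were called against 6644, 34 pathway genes against 38, and 5 member probe sets lower against 9, with fewer residual degrees of freedom. Signal over the low mode limits TLR1, TLR6 and CD14, and the knockdown values of TLR4 and TLR3.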
